A study of Mus musculus with 6 samples.

Results

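Genes of the proteasome were compared between mouse pre-B cells, transformed by BCR-ABL1, that carried a Cre vector and those that carried its control. Members were all genes of the deposited table whose symbol begins with Psma, Psmb, Psmc, Psmd, Psme, Psmf or Psmg followed by a number, which gave 50 of the 19938 genes tested. Of these, 48 encode subunits, assembly factors or regulators of the proteasome. Psmc3ip, which acts in meiotic recombination, and Psme3ip1, whose product binds the activator encoded by Psme3, match by symbol only and are given apart.

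All cells were of strain 129P2/OlaHsd, were labelled Ptpn6 +/fl (1 floxed allele of the gene for the tyrosine phosphatase SHP-1), were resistant to puromycin and had been kept for 2 days in 0.5 micromolar 4OH-Tamoxifen. The 3 arrays of the group called ERT2 came from cells transduced with PMIP-ERT2, a vector without recombinase, and the 3 of the group called CRE-ERT2 from cells transduced with PMIP-CRE-ERT2, in which tamoxifen activates Cre. The comparison concerns Ptpn6 in this model of Philadelphia chromosome-positive leukaemia. No group without a floxed allele is among the samples, so an effect of active Cre cannot be told apart from loss of the floxed allele. Neither the promoter of the vectors nor the number of clones or cultures is given in the sources used here, so p-values cover variation among these samples alone and this variation may be technical.

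The proteasome degrades proteins that carry ubiquitin chains. Its core particle is a barrel of stacked rings, in which alpha subunits form the gate and some beta subunits cut the substrate. The regulatory particle that caps it binds ubiquitin, removes it and unfolds the substrate with a ring of ATPases. In lymphoid cells, and more so after interferon, the immunoproteasome subunits Psmb8, Psmb9 and Psmb10 take the places of the catalytic subunits Psmb5, Psmb6 and Psmb7 and alter which peptides reach MHC class I. Proteasome inhibitors that bind these catalytic sites are used against several blood cancers.

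Values are log2 expression, 1 probe set per gene, and a difference of 1 is a doubling. Array medians lay between 7.90 and 7.98. ERT2 replicate 1 had the lowest weight when arrays were weighted by their agreement with their group (0.680, against 1.63 for CRE-ERT2 replicate 3). Ptpn6 read 11.34 ± 0.08 in ERT2 and 11.27 ± 0.08 in CRE-ERT2 (SD, n = 3 each, limma adjusted p = 0.759). Whether its probe set lies in the floxed part is not known here, so this level checks no label. Of 13 pre-B cell markers 12 were measured, and their mean level was 12.03 to 12.12 on the ERT2 arrays and 12.10 to 12.16 on the CRE-ERT2 arrays. Dntt, the terminal transferase gene, rose by 0.48 and Rag2, a recombinase gene, fell by 0.53 (limma adjusted p under the threshold of 0.05 for both), and the other 10 did not pass. On the ERT2 arrays, marker lists of other cells read 7.03 to 7.22 (T cell, 7 of 8 genes) and 7.18 to 7.26 (myeloid, 8 genes). On the CRE-ERT2 arrays they read 7.03 to 7.14 and 7.15 to 7.25. For erythroid markers (2 of 5) the ranges were 7.42 to 7.53 and 7.44 to 7.59, and for stromal markers (5 of 5) 7.87 to 8.11 and 7.92 to 8.14. None of the genes on these 4 lists passed, and their part in the results was not tested.

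No proteasome gene differed between the groups by the test across all genes. Of the 50 members 0 passed with limma at an adjusted p under 0.05, against 4.58% of all genes (914 of 19938; 2.3% higher and 2.28% lower) and 2.18% higher and 3.37% lower among genes at a mean level of 11 or more, and the smallest adjusted p was 0.106, for Psmc1. By scaling, the split of all genes passing moved from 459 higher and 455 lower to 543 and 349 after a further quantile normalization. The estimates were small and mostly negative. They ran from -0.23 for Psmd1 to 0.13 for Psme1 on the log2 scale, with a median of -0.09 against -0.03 over all genes, and 38 of 50 lay below 0, against 61.1% of all genes. The 95% confidence intervals of all 50 changes lay between -0.41 and 0.32. The arrays hold RNA from whole cultures, so less RNA per cell and fewer cells with that RNA cannot be told apart.

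**Figure D1:**
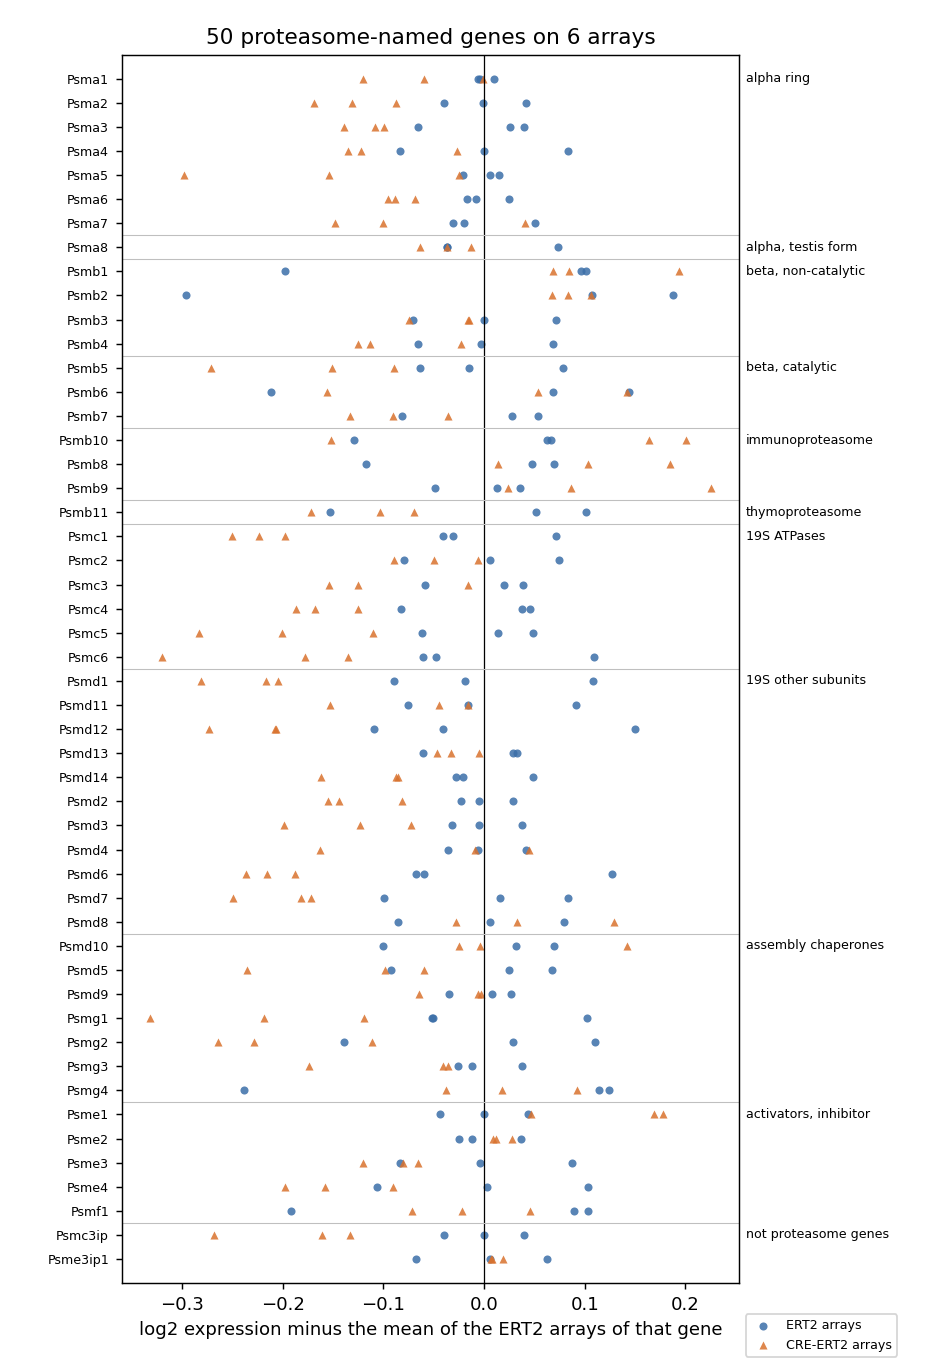
Each row is 1 gene and each point 1 array: log2 expression minus the mean of that gene's 3 ERT2 arrays (circles, ERT2; triangles, CRE-ERT2), with genes ordered by role. Triangles lie left of all circles for 19 of the 50 genes, most of them in the alpha ring and the 19S particle, and right of all circles for Psme1 only.

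At an unadjusted p under 0.05, 12 members were lower in CRE-ERT2, which is 24% of 50 against a background of 11.1% of all genes, and 0 were higher, against 5.29%. The 3 CRE-ERT2 arrays lay wholly below the 3 ERT2 arrays for 19 members (38%), against 15.5% of all genes, and wholly above for 1 (Psme1), against 6.92%. These shares are to be read against the level of the genes. Most members are bright: 40 of 50 had a mean level of 11 or more, and 3708 of all genes lay at that level. Of these, 33.8% had CRE-ERT2 wholly below ERT2 and 9.09% wholly above, 19.7% were lower and 5.85% higher at an unadjusted p under 0.05, and 70.7% had a change below 0. The median change of those 3708 genes was -0.07, against -0.09 for the 40 bright members. Of the 40 bright members, 40% lay wholly below and 2.5% wholly above, 25% were lower and 0 higher at an unadjusted p under 0.05, and 75% had a change below 0.

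The median change of all genes differed with level. It was -0.02 below a level of 7, -0.01 at 7 to 8, -0.01 at levels of 8 to 9 (2462 genes), -0.05 at 9 to 10, -0.08 at 10 to 11, -0.08 at 11 to 12 (2099 genes), -0.07 at 12 to 13 (1153 genes) and -0.03 at 13 and above (456 genes). The medians of the members at the last 3 of these levels were -0.09 (21 members), -0.10 (10 members) and -0.09 (9 members). The part of this shift in the negative values of members at levels of 9 or more was not tested.

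**Figure D2:**
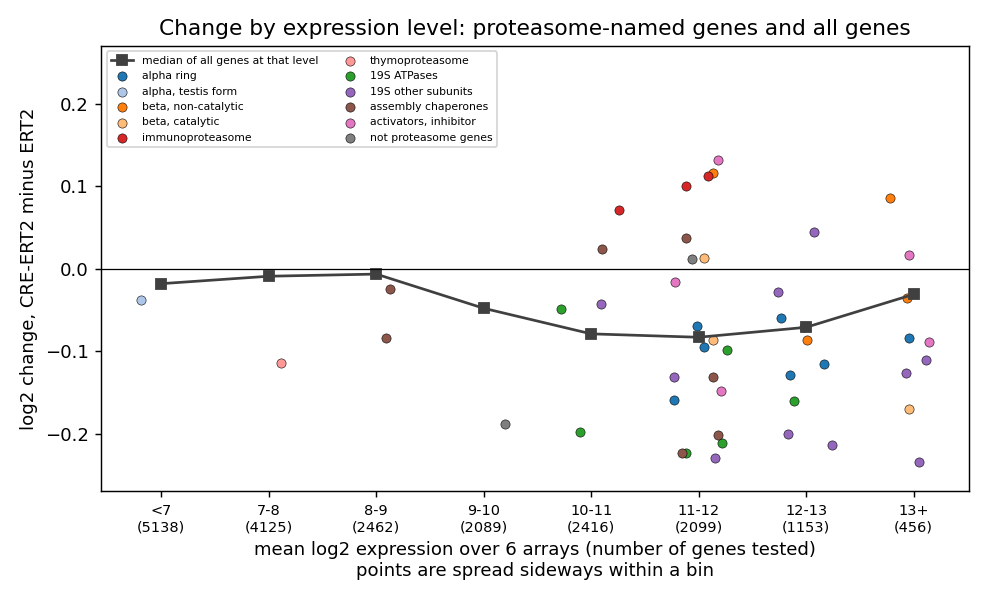
The log2 change, CRE-ERT2 minus ERT2, of each member (coloured by role) is set against its mean level in bins, with the median of all genes in each bin as squares. From 10 upward the median of all genes sits between -0.08 and -0.03, and the members scatter around it from -0.23 to 0.13.

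The alpha ring of the core particle, which forms the gate for substrates, had negative estimates for all 7 subunits, and 4 had groups apart. All 7 had a mean level of 11 or more, where 70.7% of genes had changes below 0 and 33.8% lay wholly below. The estimates of the ring ran from -0.16 for Psma5 to -0.06 for Psma1, with a median of -0.09 and adjusted p between 0.368 and 0.785 (limma). Psma5 read 11.18, 11.19 and 11.15 on the ERT2 arrays and 11.15, 11.02 and 10.88 on the CRE-ERT2 arrays. The groups just failed to overlap, and the CRE-ERT2 arrays differed more among themselves than the ERT2 arrays did. Psma2 read 12.03 to 12.11 in ERT2 and 11.90 to 11.99 in CRE-ERT2, and Psma3 and Psma6 also had groups apart. Psma8, the form of the testis, read 6.36 to 6.47 in ERT2 and 6.33 to 6.38 in CRE-ERT2 (change -0.04, adjusted p = 0.893). Signal over background is unknown in these data, so this value does not show whether Psma8 was expressed.

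The non-catalytic beta subunits showed no common direction. Psmb3 (-0.04) and Psmb4 (-0.09) had estimates below 0 and Psmb1 (0.12) and Psmb2 (0.09) above it. Without ERT2 replicate 1 the estimate of Psmb2 turned to -0.06 and that of Psmb1 was 0.02. Psmb2 read 13.17 on ERT2 replicate 1, against 13.57 and 13.65 on the other ERT2 arrays and 13.53 to 13.57 in CRE-ERT2. Psmb1 read 11.65 on ERT2 replicate 1, with 11.94 on both other ERT2 arrays and 11.91 to 12.04 in CRE-ERT2. For 6 members, Psmb1, Psmb2, Psmb6, Psmg2, Psmg4 and Psmf1, that array lay more than 0.2 below the mean of the other ERT2 arrays (12% of members, against 5.6% of all genes), and for Psmd12 it lay that far above (2%, against 11.9%). Without it, 0 members passed (smallest adjusted p 0.135) and the median change was -0.09.

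None of the 3 constitutive catalytic subunits or their immunoproteasome counterparts passed the test. Psmb5, which carries the chymotrypsin-like site, read 13.70, 13.75 and 13.84 in ERT2 and 13.67, 13.61 and 13.49 in CRE-ERT2. Every CRE-ERT2 array lay below every ERT2 array, with a change of -0.17 ± 0.08 (SE, 1.13-fold lower) and a limma adjusted p of 0.297. Psmb7, with the trypsin-like site, changed by an estimated -0.09 (adjusted p = 0.658), and its groups overlapped. Psmb6, with the caspase-like site, read 11.72 on ERT2 replicate 1, up to 12.07 on the other ERT2 arrays, and 12.07, 11.98 and 11.77 in CRE-ERT2 (change 0.01, adjusted p = 0.979). Both groups covered the same range.

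The 3 immunoproteasome subunits had estimates above 0, at 0.10 for Psmb8, 0.11 for Psmb9 and 0.07 for Psmb10, and none passed (adjusted p 0.632, 0.549 and 0.836 with limma). Psmb8 read 11.14, 11.30 and 11.33 in ERT2 and 11.44, 11.36 and 11.27 in CRE-ERT2. Psmb9 read 11.09, 11.15 and 11.17 in ERT2 and 11.36, 11.22 and 11.16 in CRE-ERT2. For both genes CRE-ERT2 replicate 1 was highest and ERT2 replicate 1 lowest, and the groups overlapped. Psmb10 read 10.60, 10.79 and 10.80 in ERT2 and 10.93, 10.89 and 10.58 in CRE-ERT2, so that its lowest value was a CRE-ERT2 array. Its estimate was 0.01 without ERT2 replicate 1 or without CRE-ERT2 replicate 1, and 0.18 without CRE-ERT2 replicate 3. Psmb8 was at 0.04 without ERT2 replicate 1 and 0.06 without CRE-ERT2 replicate 1, and Psmb9 at 0.06 without the latter. Psmb11, the thymoproteasome subunit of the thymic cortex, read 6.93 to 7.18 in ERT2 and 6.91 to 7.01 in CRE-ERT2 (adjusted p = 0.576).

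To ask whether an immunoproteasome subunit changed unequally with the subunit it replaces, the log2 difference of the pair was taken within each array. Only its change between groups can be read, since levels of different probe sets are not comparable. The Psmb8 minus Psmb5 difference was -2.56, -2.45 and -2.52 on the ERT2 arrays and -2.23, -2.25 and -2.22 on the CRE-ERT2 arrays. The groups did not overlap, and the difference between them was 0.27 ± 0.03 (SE). A two-sided exact permutation test gave p = 0.1, the smallest that 3 arrays against 3 allow, and 0.3 after Benjamini-Hochberg adjustment over the 3 pairs, so this design cannot pass the threshold. The Psmb9 minus Psmb6 difference shifted by 0.10 ± 0.09 and the Psmb10 minus Psmb7 difference by 0.16 ± 0.09 (SE), each with an exact permutation p of 0.3 (adjusted 0.3) and overlapping groups. Leaving out each array in turn, the shift of the first pair lay between 0.24 and 0.30, that of the second between 0.04 and 0.18 and that of the third between 0.11 and 0.25.

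**Figure D3:**
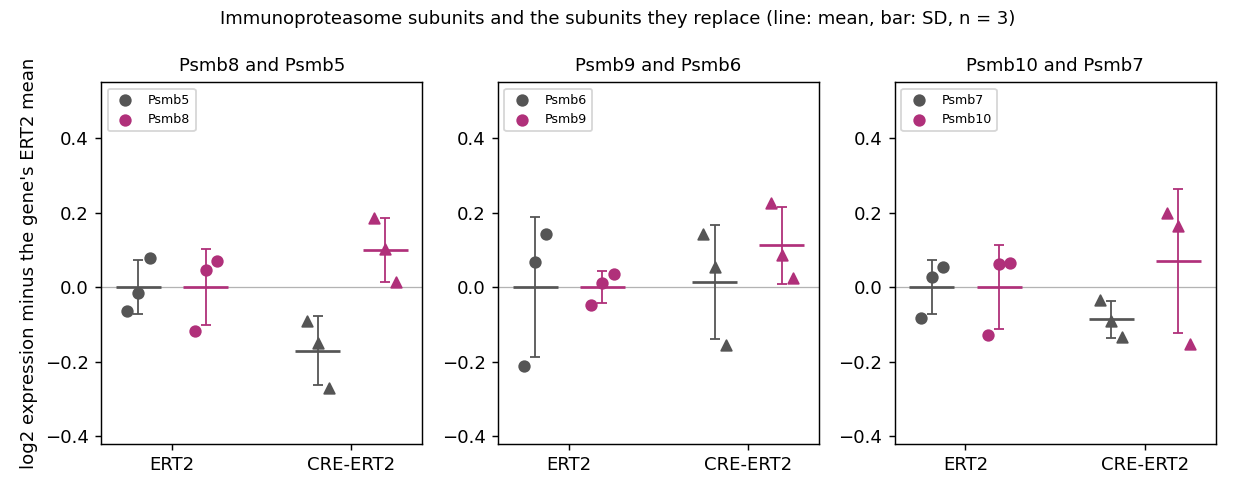
In each panel the log2 expression of an immunoproteasome subunit (magenta) and of its constitutive counterpart (grey) is drawn for every array as the distance from the gene's ERT2 mean (lines, means; bars, SD, n = 3 each). Psmb5 and Psmb8 part in CRE-ERT2, with changes of -0.17 and 0.10, and the arrays of the other pairs overlap.

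The upstream sequences of these genes are printed because the pairs are under different control: interferon-responsive elements are known for immunoproteasome genes, and antioxidant response elements, bound by NFE2L1 and NFE2L2, for constitutive ones. In RefSeq's order on chromosome 17, Psmb9, Tap1, Psmb8 and Tap2 are neighbours, and the Psmb9 sequence is the whole stretch of 225 bases between the starts of Psmb9 and Tap1. Sequences are from RefSeq, build GRCm38.p6, and are written 5′ to 3′ along the gene, ending just before its start. Capitals mark matches, on either strand, to the antioxidant response element core TGACNNNGC, the core of the interferon-stimulated response element, the gamma-activated site TTCNNNGAA or the NF-Y box CCAAT.
Psmb5 (chr14:54617996-54618245, minus strand): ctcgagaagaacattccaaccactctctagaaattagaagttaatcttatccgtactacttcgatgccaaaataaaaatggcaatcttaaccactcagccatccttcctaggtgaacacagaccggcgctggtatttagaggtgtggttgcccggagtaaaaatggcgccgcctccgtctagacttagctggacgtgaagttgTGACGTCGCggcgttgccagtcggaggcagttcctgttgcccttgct
Psmb8 (chr17:34197945-34198194, plus strand): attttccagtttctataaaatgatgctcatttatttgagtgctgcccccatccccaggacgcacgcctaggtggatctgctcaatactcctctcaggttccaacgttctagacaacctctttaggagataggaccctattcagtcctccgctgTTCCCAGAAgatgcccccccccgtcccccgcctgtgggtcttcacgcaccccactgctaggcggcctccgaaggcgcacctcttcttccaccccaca
Psmb9 (chr17:34187331-34187555, minus strand): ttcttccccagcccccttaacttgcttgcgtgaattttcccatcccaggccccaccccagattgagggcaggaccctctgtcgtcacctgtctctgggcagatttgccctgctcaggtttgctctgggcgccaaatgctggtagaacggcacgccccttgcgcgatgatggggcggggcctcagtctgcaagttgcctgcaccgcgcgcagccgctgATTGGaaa
Psmb10 (chr8:105938393-105938642, minus strand): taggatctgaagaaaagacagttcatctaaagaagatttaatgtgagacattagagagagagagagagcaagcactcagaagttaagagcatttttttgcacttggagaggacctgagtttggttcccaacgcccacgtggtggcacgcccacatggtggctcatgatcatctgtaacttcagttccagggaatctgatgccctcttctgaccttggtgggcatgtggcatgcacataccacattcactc

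Psmb5 held the antioxidant core at 47 to 39 bases before its start and Psmb8 a gamma-activated site at 97 to 89 bases. The pattern of that site matches on both strands, although its letters differ between them. Psmb9 held an NF-Y box on the reverse strand. Psmb10 held none of the 4, and no match overlapped another. A match is a description of letters, not of binding. Promoter windows were matched for 42 of the 50 members. In the 250 bases before the start, 5 of these 42 held the antioxidant core (11.9%, against 11.5% of all 27025 genes with a window), namely Psmb5, Psmb6, Psmc6, Psmd9 and Psmd12. Their log2 changes were -0.17, 0.01, -0.21, -0.02 and -0.23. The interferon core was found in 3 (7.14%, against 3.46%), namely Psmb3, Psmd4 and Psmd9, and in no immunoproteasome subunit gene. Their changes were -0.04, -0.04 and -0.02. The gamma-activated site was found in 2 (4.76%, against 8.13%), Psmb8 (0.10) and Psmg1 (-0.22). The NF-Y box was found in 16 (38.1%, against 37.5%).

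The regulatory particle held most of the lowest estimates. Of the 17 of its subunits that the symbol rule took, 16 had changes below 0, with a median of -0.13. For 11 of them CRE-ERT2 lay wholly below ERT2. Over all genes 61.1% had changes below 0 and 15.5% lay wholly below, and over genes at a level of 11 or more 70.7% and 33.8%. None of the 17 passed (adjusted p 0.106 to 0.925 with limma). Among the 6 ATPases, which unfold the substrate, Psmc1 read 12.08, 11.98 and 11.97 in ERT2 and 11.81, 11.78 and 11.76 in CRE-ERT2. The gap between the groups was wider than the spread within either, and the change was -0.22 ± 0.07 (SE, 1.17-fold lower, adjusted p = 0.106). A second Psmc1 probe set changed by -0.15. Psmc6 read 12.15, 11.98 and 11.99 in ERT2 and 11.90, 11.72 and 11.86 in CRE-ERT2 (-0.21, adjusted p = 0.194). Psmc5 (-0.20) and Psmc4 (-0.16) also had groups apart, while those of Psmc2 (-0.05) and Psmc3 (-0.10) overlapped.

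Among the 11 other subunits that the rule took, Psmd1, a large scaffold that docks ubiquitin receptors, had the lowest estimate of all members. It read 13.52, 13.32 and 13.39 in ERT2 and 13.21, 13.13 and 13.20 in CRE-ERT2, a change of -0.23 ± 0.08 (SE, 1.18-fold lower, adjusted p = 0.115). Psmd12, a subunit of the lid, read 12.20, 12.01 and 11.94 in ERT2 and 11.84, 11.77 and 11.84 in CRE-ERT2 (-0.23, adjusted p = 0.157). Its ERT2 replicate 1 was high, and the other ERT2 arrays still lay above all CRE-ERT2 arrays. The lid subunits Psmd6 (-0.21) and Psmd7 (-0.20) had adjusted p of 0.163 and 0.183. Psmd7 read 12.10, 12.28 and 12.21 against 12.03, 11.95 and 12.02. Psmd14, the enzyme that cuts ubiquitin chains off the substrate, read 13.10, 13.17 and 13.09 in ERT2 and 13.04, 12.96 and 13.03 in CRE-ERT2 (-0.11, adjusted p = 0.499), so its groups were apart by a small margin. The ubiquitin receptor Psmd4 (-0.04, limma adjusted p = 0.884) had overlapping groups. Of the subunits of the particle that the rule took, only Psmd8 (0.04) had an estimate above 0.

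Psmc6 and Psmd12 were picked by their p: they are, with Psmb5, the members with an antioxidant core and an unadjusted p under 0.05. Their upstream sequences are shown so that the position of the match, far from the start in both, can be compared with that in Psmb5. The match lies on the reverse strand, at 227 to 219 bases before the start in Psmc6 and at 247 to 239 bases in Psmd12. Psmb6 and Psmd9, the other carriers, held the core on the forward strand at 9 to 1 and 31 to 23 bases. Their changes were 0.01 and -0.02. At an unadjusted p under 0.05 (limma), 24% of the 50 members were lower, against 11.1% of all genes. Among genes at a level of 11 or more, 19.7% were lower. Whether the core bears on the change was not tested. Positions count from the start that RefSeq's promoter table uses, and the Psmc6 sequence stops 1 base short of it, where another start of the gene lies.
Psmc6 (chr14:45329574-45329822, plus strand): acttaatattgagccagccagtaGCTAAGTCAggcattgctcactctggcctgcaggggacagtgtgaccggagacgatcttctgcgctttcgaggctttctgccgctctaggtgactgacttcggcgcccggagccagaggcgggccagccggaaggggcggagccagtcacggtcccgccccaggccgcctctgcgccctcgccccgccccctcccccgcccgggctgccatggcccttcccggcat
Psmd12 (chr11:107479278-107479527, plus strand): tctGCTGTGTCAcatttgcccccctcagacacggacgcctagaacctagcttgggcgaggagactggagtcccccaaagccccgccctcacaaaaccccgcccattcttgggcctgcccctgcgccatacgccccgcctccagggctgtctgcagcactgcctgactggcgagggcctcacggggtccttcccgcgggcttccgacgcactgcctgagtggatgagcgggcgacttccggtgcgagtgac

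**Figure D4:**
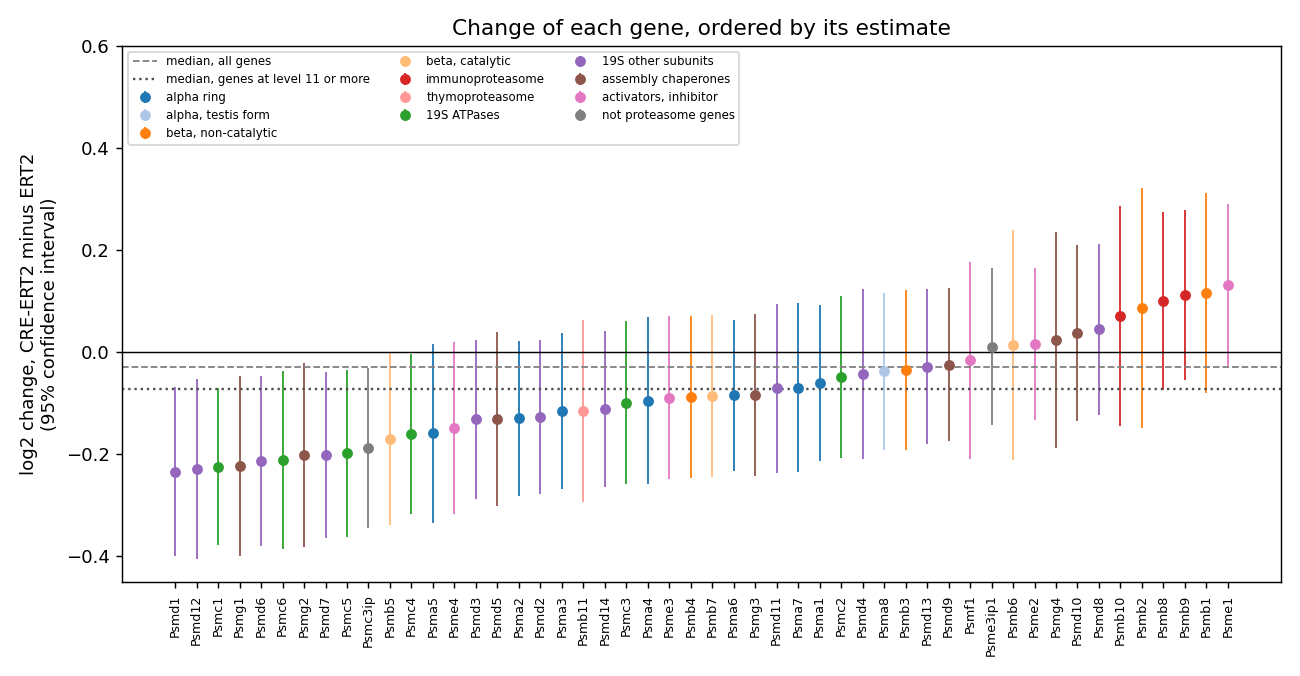
The log2 change of each of the 50 members, CRE-ERT2 minus ERT2, is plotted with its 95% confidence interval from limma, ordered by the estimate and coloured by role. The dashed line is the median of all genes (-0.03) and the dotted line that of genes at a level of 11 or more (-0.07); 19S subunits fill most of the left end and immunoproteasome subunits with Psme1 most of the right end.

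How variance was modelled decided whether any member was called. With a variance that depends on level and is robust to outlying genes, 6 members passed, all lower in CRE-ERT2: Psmd1 (adjusted p = 0.00751), Psmc1 (0.0222), Psmd6 (0.0393), Psmd12 (0.0402), Psmb5 (0.0478) and Psmd7 (0.0481). That is 12% of members, against 4.8% of all genes called lower under the same model. All 6 were among the 40 members at a level of 11 or more, 15% of them, against 11.9% of all genes at that level. None of the members was called higher, against 2.94% of all genes and 4.07% of those at a level of 11 or more.

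The assembly chaperones, which build the particles and then leave, were split. Of the 4 that assemble the core rings, Psmg1 read 11.63, 11.63 and 11.78 in ERT2 and 11.56, 11.46 and 11.35 in CRE-ERT2 (-0.22, limma adjusted p = 0.169). Its partner Psmg2 read 11.58, 11.83 and 11.74 against 11.60, 11.45 and 11.49 (-0.20, adjusted p = 0.241), and its groups overlapped through ERT2 replicate 1. Psmg3 (-0.08) had groups apart, and Psmg4 (0.02) did not. The chaperones of the ATPase ring, Psmd5 (-0.13), Psmd9 (-0.02) and Psmd10 (0.04), all had overlapping groups.

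Among the alternative caps and inhibitors, Psme1 had the highest estimate of all members. Psme1 and Psme2 encode the interferon-inducible activator that opens the core without ubiquitin. Psme1 read 11.78, 11.82 and 11.86 in ERT2 in that order of replicates, and in CRE-ERT2 11.87 on replicate 3 and 11.99 or more on the others, a change of 0.13 ± 0.07 (SE, adjusted p = 0.422). The groups were apart, by a margin smaller than the spread within CRE-ERT2. Psme2 read 13.07, 13.02 and 13.01 against 13.06, 13.04 and 13.04 (0.02, adjusted p = 0.960). A probe set that the annotation assigns to both Psme2b and Psme2, and that the gene test therefore left out, changed by 0.23 (limma adjusted p = 0.307 over all probe sets). The nuclear activator Psme3 (-0.09) and Psme4, linked to histone turnover (-0.15), had overlapping groups (adjusted p 0.648 and 0.383), as had the inhibitor Psmf1 (-0.02, 0.969). Of the genes that match by symbol only, Psmc3ip read 9.65, 9.61 and 9.57 in ERT2 and 9.45, 9.35 and 9.48 in CRE-ERT2 (-0.19, adjusted p = 0.20), and Psme3ip1 changed by 0.01.

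The sign of a member's estimate was followed over the alternatives that can move it: quantile normalization, median centring, array weights, averaged probe sets (for the 5 members with several) and each array left out. Over these, 34 members kept an estimate below 0, 7 kept one above 0 (Psmb1, Psmb8, Psmb9, Psmb10, Psmd8, Psme1 and Psme2), and 9 took both signs. Other probe sets of Psma3 (-0.11 and -0.10), Psma5 (-0.18), Psmb3 (-0.09) and Psmd2 (-0.14) lay near those kept (-0.12, -0.16, -0.04 and -0.13). Probe positions are not known here, so whether the probe sets of 1 gene read different sequence cannot be told. Within CRE-ERT2, replicate 1 was the highest array for 38 of 50 members (76%), against 37.7% of all genes. This share was not counted for genes at a level of 11 or more. The median deviation of members from their own means was 0.03, 0.05 and 0.05 on the ERT2 arrays and 0.00, -0.06 and -0.07 on the CRE-ERT2 arrays. For genes at a level of 11 or more it was 0.06, 0.03 and 0.01, then 0.00, -0.05 and -0.05. Over all genes it was 0.04, -0.02 and 0.03, then -0.03, 0.00 and -0.02.

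Among genes that work with the proteasome, 1 ubiquitin-conjugating enzyme gene passed. By the same test 4.58% of all genes passed, and 5.56% of those at a level of 11 or more. Of 14 measured partners, assembly and shuttle factors (19 listed), 0 passed, 12 had estimates below 0 (61.1% of all genes and 70.7% of those at a level of 11 or more) and the median was -0.12. Ube3c, a ubiquitin ligase that acts at the proteasome, read 11.41, 11.40 and 11.32 in ERT2 and 11.21, 11.08 and 11.12 in CRE-ERT2 (-0.24, limma adjusted p = 0.0906). Zfand2a, a stress-induced factor that binds the proteasome, had the next smallest p, with an estimate of 0.26 (0.165). Of 13 genes of the p97 machinery, which extracts proteins from membranes and complexes, 0 passed and 12 had estimates below 0. Their median was -0.07, the same as that of genes at a level of 11 or more. The p97 genes with the smallest p were Faf1 (-0.16, adjusted p = 0.292) and Nsfl1c (-0.15, 0.396). Of 21 genes for ubiquitin-activating and ubiquitin-conjugating enzymes 1 rose, Ube2h, from 11.29 ± 0.12 to 11.71 ± 0.03 (SD, n = 3 each, 1.34-fold, adjusted p = 0.00781). A second Ube2h probe set changed by 0.39. The list's median was 0.01, with 10 estimates below 0 and 11 above, and Uba6, an activating enzyme, had the next smallest p (-0.27, adjusted p = 0.0937). Ube2h did not pass without CRE-ERT2 replicate 3 (0.0557) or with every probe set tested (0.0913). The 4 ubiquitin genes listed were not analysed here.

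Regulators of proteasome genes and genes of MHC class I processing gave 1 call each. Over all genes 4.58% were called, and 5.56% of those at a level of 11 or more. Of 18 regulators measured, Irf1, an interferon-induced transcription factor that acts on immunoproteasome genes, rose. It read 10.79, 10.69 and 10.74 in ERT2 and 11.22, 11.06 and 11.03 in CRE-ERT2, a change of 0.36 ± 0.08 (SE, 1.29-fold, limma adjusted p = 0.0168). All CRE-ERT2 arrays lay above all ERT2 arrays. A second Irf1 probe set changed by 0.15, and the mean of both did not pass (0.0705), nor did Irf1 without CRE-ERT2 replicate 1 (0.0730) or with every probe set tested (0.116). Mafg, a small Maf partner of the NFE2L factors, had the next smallest p (-0.19, adjusted p = 0.187). Nlrc5, the activator of MHC class I genes, changed by 0.19 on the probe set kept (adjusted p = 0.294). All of its 19 probe sets had estimates above 0, between 0.10 and 0.33, and 0 of them passed over all probe sets (smallest adjusted p 0.240). They read 1 gene on the same arrays and are not replicates. Nfe2l1, which restores proteasome genes after inhibition, changed by -0.12 (adjusted p = 0.430) and Nfe2l2, the oxidative stress factor, by 0.18 (0.208). For both, the groups did not overlap.

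Of 11 measured genes of MHC class I antigen processing, 1 fell and 0 rose, against 2.28% and 2.3% of all genes. The median change of the list was 0.07. The direction of the calls turned with the processing: a further quantile normalization gave 2 higher (Tap1 and Tapbpl) and 0 lower, and a trended and robust variance 3 higher (with B2m) and 1 lower. The gene that fell was Thop1, a peptidase that destroys peptides in the cytosol, from 9.82 ± 0.05 to 9.52 ± 0.11 (SD, n = 3 each, 1.23-fold, limma adjusted p = 0.0486). This call was lost whichever array was left out (adjusted p 0.0503 to 0.240). Tap1, named here because it shares its upstream stretch with Psmb9, read 11.14, 11.29 and 11.20 in ERT2 and 11.57, 11.50 and 11.33 in CRE-ERT2 (0.26, adjusted p = 0.111), with the groups apart. The tapasin-related gene Tapbpl (0.32, 0.0707), chosen as the gene with the next smallest p, did not pass either.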

How the data were processed

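RNA from 6 samples, labelled with biotin, was hybridised to Affymetrix arrays, per the labels' protocols. The authors deposited log2 expression values, 1 for each probe set on each array. The submitters' processing notes list RMA and Partek 6.5 with no role. The log2 scale was read from the range of the values; no genome build is stated for the array in the sources used. The annotation lists 1 gene for 21789 of 35556 probe sets; for a gene with several, the probe set with the highest mean was kept, which left 19938 genes. No filter on low values was used. CRE-ERT2 was compared with ERT2 by limma 3.58.1 in R 4.3.3 (group as the only term, two-sided, Benjamini-Hochberg over all genes, threshold 0.05), a fit first tested on simulated data. Pair differences used exact permutation. Arrays correlated at 0.991 to 0.996 and no pair was a duplicate. The naming rule took the catalytic, testis and thymus forms, the activators and inhibitor, Psmd4, Psmd14, the 6 largest changes each way, genes matching by symbol only, the regulators Nfe2l1, Nfe2l2, Irf1 and Nlrc5, and of each pathway list the genes that passed or had the smallest p; other members named, and Tap1, were chosen after their values were seen. Members and lists were chosen with earlier results of these data known. Alternatives were a further quantile normalization, median centring, leaving out the dimmest genes, all probe sets or their mean, another variance model, weighted arrays, a block by replicate number and each array left out.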

Additional observations from a re-analysis of the deposited data

How the results depend on the processing

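The count of members passing was 0 under the main setting and under each alternative but a trended and robust variance, which gave 6. Leaving out each array in turn, it was 0 in every case, the median change of the members lay between -0.11 and -0.07, and the count over all genes between 453 and 979. For all genes passing, the count was 914, against 298 probe sets with every probe set tested, 1544 with a trended and robust variance and 560, 574 and 453 without ERT2 replicate 1, CRE-ERT2 replicate 2 and CRE-ERT2 replicate 3. The replicate block gave 589, with 0 members and 0 genes of MHC class I processing. Deviations of same-numbered samples correlated at -0.11, -0.37 and -0.07, and 0 of 6 samples correlated best with their own number. With 3 arrays per group these values cannot decide whether same-numbered samples were paired, and the labels state no pairing. With a trended and robust variance, 3 ubiquitin enzyme genes, 4 MHC class I processing genes, 2 regulators and 2 partners passed, against 1, 1, 1 and 0. With every probe set tested, 0 of the first 3 lists passed. A further quantile normalization gave 2 ubiquitin enzyme and 2 MHC class I genes and moved the Psmb8 minus Psmb5 shift from 0.27 to 0.33. Without the dimmest genes 2 ubiquitin enzyme genes, 2 MHC class I genes and 1 partner passed; with centred arrays 0 MHC class I genes, and with probe sets averaged per gene, 0 regulators. Leaving out arrays gave 0 to 2 ubiquitin enzyme genes, 0 MHC class I genes, 0 to 1 regulators and 0 partners. The cause of these moves was not tested. Leaving out the genes that match by symbol only gave a median of -0.09 and 0 passing; a further check, chosen after seeing the data, left out members with ERT2 replicate 1 standing apart and also gave -0.09. The comparison with genes at a level of 11 or more was also chosen after seeing the data. Signal over background is unknown for the dim genes Psma8 and Psmb11.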
